A study of Mus musculus with 16 samples.

Results

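The cytosolic ribosomal protein genes of the mouse were followed in brain RNA. Members were taken by symbol: every row whose name is Rpl or Rps with a number and at most a paralogue letter (Rpl4, Rps27a, Rps4x, Rpl22l1), plus Rplp0, Rplp1, Rplp2 and Rpsa. Rows of processed pseudogenes named with -ps and the Rps6k kinases were left out. The rule found 84 of the 43472 gene symbols in the count files, 33 named for the small subunit and 51 for the large one. In the GENCODE annotation of the mm10 genome 82 of them are protein coding. The other two, Rps4l and Rps12l1, carry members' names and are annotated as processed pseudogenes.

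The study asked whether a mouse lacking Prepl, the gene lost in congenital myasthenic syndrome 22, resembles a mouse model of Prader-Willi syndrome. There were 16 brain libraries in 4 groups of 4: mice with a Prepl knockout, wild types that served as their controls, mice with the Prader-Willi imprinting centre deleted (PWS-IC deleted), and a separate set of wild types for those. The sources used here give no age, strain, brain region or parental origin of the deletion, and the labels name no treatment. They do not say that each library is a separate animal. The p-values therefore reflect library-to-library spread only, which may be technical. Libraries were made with a kit that captures the poly(A) tail and sequences the 3′ end of each mRNA, so a transcript gives about the same number of reads whatever its length. Levels are given as CPM, the reads of a gene per 1000000 reads in genes. Reads that align to several places were not counted, so a CPM is a level of counted reads, and it can fall short for a gene with close copies.

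A ribosome holds ribosomal RNA and a single copy of nearly every ribosomal protein, and cells make the proteins in matched amounts. In mammals much of that matching happens in translation. Ribosomal protein mRNAs begin with a run of pyrimidines, the terminal oligopyrimidine (TOP) tract, through which mTOR and the RNA-binding protein Larp1 set how strongly they are translated. Brain tissue is rich in these mRNAs, in neuron bodies as well as in processes. A count of mRNA reads says nothing about the translation step or about the number of ribosomes.

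Each library held between 3477624 and 5852716 reads in genes. Prepl itself stood at 34.8 ± 1.35 CPM (SD, n = 4) in its wild types and at 1.64 ± 0.453 CPM (SD, n = 4) in the knockout. Ndn, an imprinted gene silenced when the centre is lost, stood at 556 ± 11.1 CPM (SD, n = 4) in the wild types and at 4.30 ± 1.90 CPM (SD, n = 4) in the deleted brains. The label of brain was checked on 8 neuron markers, whose summed level lay between 3637 and 4309 CPM over the 16 libraries. By Xist and Y-linked reads, all 4 Prepl knockouts were male and 3 of their 4 wild types female, while both PWS-IC groups held 2 females and 2 males. Wild type 1 of the Prepl set was the lowest of its group: 1.99% of its reads in genes came from the 84 members, against 2.33%, 2.46% and 2.50%. The check for outlying libraries did not flag this share. In the PWS-IC deleted libraries between 17.7% and 20.1% of all tabled reads fell outside genes, against 11.4% to 13.7% in their wild types, so that these groups did not overlap. Members' results are given with all libraries. Fits without wild type 1, or with the share outside genes as a term, are given for the main counts and for some members only.

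The 84 members took 2.32% ± 0.229 (SD, n = 4) of the reads in genes in the Prepl wild types and 2.46% ± 0.0530 (SD, n = 4) in the Prepl knockouts. They took 2.87% ± 0.187 (SD, n = 4) in the PWS-IC wild types, where the single libraries gave 2.95%, 2.60%, 2.93% and 3.01%. In the PWS-IC deleted brains the share was 3.15% ± 0.138 (SD, n = 4), with 3.11%, 3.35%, 3.12% and 3.03%. Every PWS-IC deleted library was thus above every PWS-IC wild type, by a narrow margin, and every library of either PWS-IC group was above every library of the Prepl set. Large-subunit members outweighed small-subunit members in all 16 libraries, with a ratio of reads between 1.14 and 1.16 in the PWS-IC wild types and between 1.20 and 1.24 in the deleted brains. In the Prepl set this ratio overlapped, at 1.15 to 1.21 in the wild types and 1.20 to 1.23 in the knockouts. Mitochondrial mRNAs moved beside the share: they took 5.21% to 6.22% of the reads in genes in the PWS-IC wild types and 3.95% to 4.45% in the deleted brains, but 5.85% to 6.12% in the Prepl wild types and 6.67% to 8.32% in the knockouts. With mitochondrial reads left out of the total, the members' mean share was 2.59% and 2.81% in the Prepl wild types and knockouts and 3.25% and 3.46% in the PWS-IC wild types and deleted brains. The PWS-IC groups then overlapped, with 3.37%, 2.94%, 3.29% and 3.40% in the wild types and 3.40%, 3.71%, 3.42% and 3.32% in the deleted brains.

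**Figure D1:**
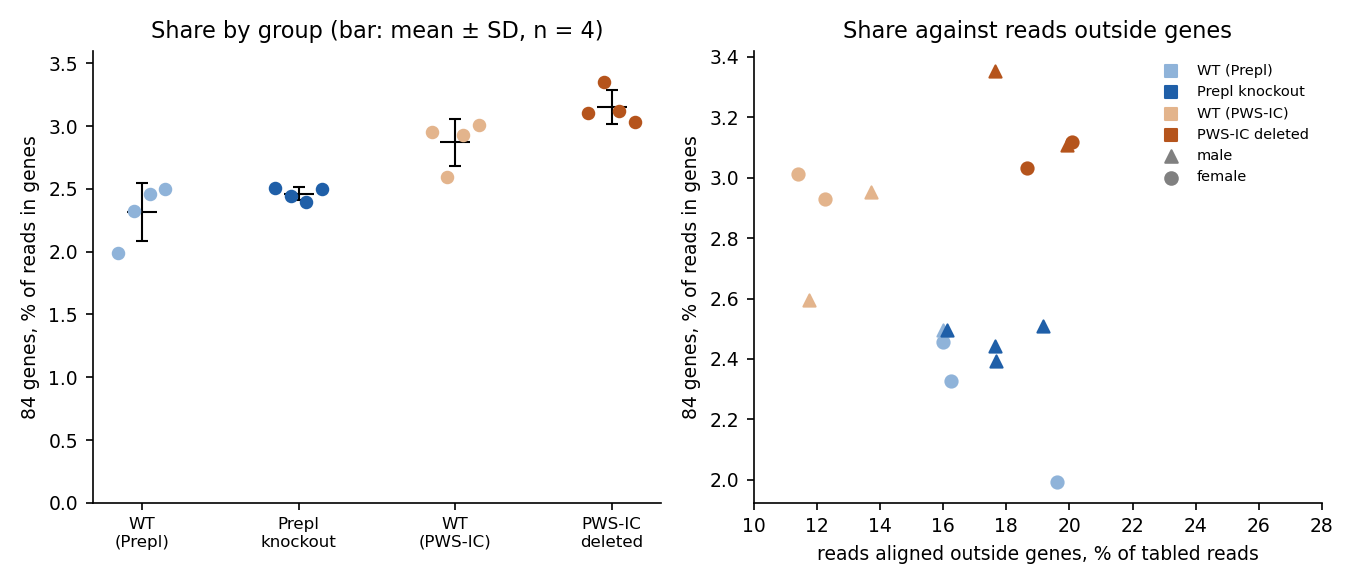
The left panel plots the share of reads in genes taken by the 84 ribosomal protein genes (percent) in each of the 16 libraries, with the mean and SD of each group of 4. The right panel plots the same share against the percentage of reads aligned outside genes, with triangles for males and circles for females; the PWS-IC wild types sit at 11.4% to 13.7% outside genes and the deleted brains at 17.7% to 20.1%.

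Although their products are needed in equal numbers, the members' counted levels spanned a wide range. Rps14, a protein of the small-subunit platform, led with a mean of 1383 CPM over the 16 libraries, followed by Rpl37 at 1060.1 CPM, Rps21 at 1011 CPM, Rpl4 at 873 CPM and Rps26 at 787 CPM. At the other end of the members that could be tested stood Rps6, the classical substrate of S6 kinase, at 13.0 CPM, with Rpl7a at 15.9 CPM, Rpl17 at 17.1 CPM and Rpl19 at 19.2 CPM. Whether reads lost to copies lower these levels was not tested. In the annotated 3′-most 300 bases of a model transcript of Rps6 83.3% of all 50-base words also occur in other annotated genes or their pseudogenes. For Rpl17 that share was 56.2%, and for the abundant Rps26 it was 62.5%. Over the 80 tested members the level on the log2 CPM scale and the shared percentage had a Pearson r of -0.29 and a Spearman rho of -0.33, across genes that share the same 16 libraries. The 251 pseudogene rows of the members together held 0.172% to 0.264% of the reads in genes.

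The tissue-restricted copies were almost silent. Rpl10l, a testis copy of Rpl10, had 0 reads in all 16 libraries. Rpl3l, the copy of Rpl3 used in heart and skeletal muscle, had 16 reads in all, Rpl39l, the testis copy of Rpl39, had 19, and Rps12l1 had 49. These 4 stayed under the count filter, and the other 80 members, 32 of the small and 48 of the large subunit, were tested in each comparison. The other paralogues were well expressed: Rpl22l1 at 160 ± 17.5 CPM (SD, n = 4), Rps27l at 55.0 ± 5.69 CPM (SD, n = 4) and Rpl7l1 at 29.5 ± 3.03 CPM (SD, n = 4) in the Prepl wild types.

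In the Prepl knockout no ribosomal protein gene passed the test. Of the 80 tested, 0 had an adjusted p below 0.05 in edgeR's quasi-likelihood test, where 0.262% of all 13722 tested genes were called (0.189% higher and 0.0729% lower), and DESeq2 and limma's voom also called 0. At an unadjusted p below 0.05, 23 members were higher and 1 was lower, against 4.92% and 4.51% of all genes. A positive log2 fold change was found for 69 of 80 members, against 50.1% of all genes, and the median member stood at 0.10, against 0.00 for all genes. The lean was small, and its size depended on which libraries and terms were in the fit. Of the marker lists for other cell types, 1 of 5 tested blood markers fell in this comparison and no marker of the other types was called.

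Rpl7, a protein of the large subunit, had the smallest p. Its level was 117, 129, 132 and 134 CPM in the wild types and 146, 149, 146 and 156 CPM in the knockouts. The groups did not overlap, and the log2 fold change was 0.26 ± 0.070 (SE), with an adjusted p of 0.159 in edgeR's quasi-likelihood test. Rpl23, at 254, 317, 349.5 and 334 CPM in the wild types and 382, 373, 353 and 373 CPM in the knockouts, did not overlap either, with a log2 fold change of 0.27 ± 0.079 (SE) and an adjusted p of 0.202. Rpl21 gave 0.32 ± 0.094 (SE), Rpl11 0.30 ± 0.087 (SE), Rpl31 0.21 ± 0.072 (SE) and Rpl4 0.22 ± 0.077 (SE) on the same log2 scale, each with overlapping groups and an adjusted p between 0.209 and 0.320. In all, 3 members lay above their wild types without overlap, where 1.6% of all genes did, and 1 lay below, where 4.09% did. The third of the higher ones was Rps20, and the lower one was Rpl39, with a log2 fold change of -0.11 ± 0.071 (SE).

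Rpl35a had the lowest log2 fold change of the tested members and was not called. It was at 38.9, 67.9, 54.3 and 69.9 CPM in the wild types and at 47.7, 30.4, 27.1 and 57.0 CPM in the knockouts, so that the groups overlapped. Its log2 fold change was -0.49 ± 0.174 (SE), with an adjusted p of 0.359. Without wild type 1 it was -0.62 with an adjusted p below the threshold, the single member called in that fit.

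The lean towards higher values was smaller without wild type 1. When that library was left out, 53 of 80 members were above 0, and the median log2 fold change over the 80 was 0.04. Rpl7 then stood at 0.22, Rpl23 at 0.19, Rpl21 at 0.24, Rpl11 at 0.23, Rpl31 at 0.15 and Rpl4 at 0.15. None of these was called with or without that library. With sex as a term 41 of 80 were above 0, with a median of 0.00. A single wild-type male then stands against 4 male knockouts. For both fits the share of all genes above 0 and their median are not given here. No leave-out of another library brought the number above 0 under 67. Neither subunit stood out, with a median of 0.07 over 32 small-subunit members and 0.13 over 48 large-subunit members.

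**Figure D2:**
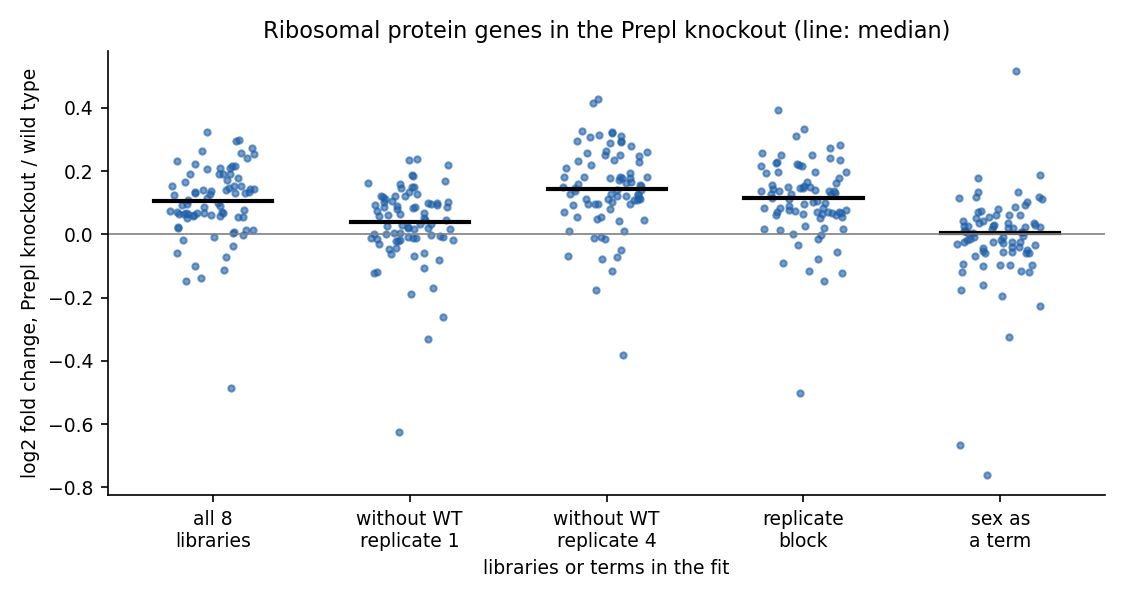
Each point is a tested ribosomal protein gene, placed by its log2 fold change in the Prepl knockout against wild type (y axis) under 5 fits (x axis), with a line at the median. The median lies at 0.10 with all 8 libraries, at 0.04 without wild type 1 and at 0.00 with sex as a term.

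In the PWS-IC deleted brains 19 of the 80 members passed the test, 18 of them higher and 1 lower. Across all 13636 tested genes 4.52% were called, 2.96% higher and 1.55% lower. At an unadjusted p below 0.05, 32 members were higher and 4 lower, against 9.97% and 8.24% of all genes. The 18 that rose came from both subunits, 7 from the small and 11 from the large, and the changes were moderate, between 1.23-fold for Rpl34 and 1.63-fold for Rps23. The remaining 61 members were not called, and the median over all 80 was a log2 fold change of 0.11, against -0.01 for all genes, with 57 members above 0, against 47.6% of all genes. The deleted brains therefore did not show a uniform shift of the set: some members rose, most were not called, and 1 fell.

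Rpl4, whose long extension lines the tunnel through which the new protein leaves, showed the strongest evidence. It was at 759, 569, 664 and 793 CPM in the wild types and at 1146, 1144, 1044 and 1098 CPM in the deleted brains. All 4 deleted libraries were above all their wild types. They were also above every library of the Prepl set, where the highest of 8, a knockout, was at 951 CPM. The log2 fold change was 0.68 ± 0.092 (SE), with an adjusted p of 0.000209 in edgeR's quasi-likelihood test. The gene lies on chromosome 9 from 64173375 to 64178666 on the plus strand and holds 5 small nucleolar RNAs inside its span.

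Rps23, which reaches into the decoding centre where codon and anticodon meet, was at 122, 93.5, 143 and 162 CPM in the wild types and at 225, 203, 224 and 190 CPM in the deleted brains. Its log2 fold change of 0.70 ± 0.120 (SE) was the highest of the set, with an adjusted p of 0.00198, although its wild types spread widely. Rpl21 was at 89.9, 79.1, 102 and 99.9 CPM in the wild types and at 143, 146, 125 and 126 CPM in the deleted brains. Its log2 fold change was 0.55 ± 0.096 (SE), with an adjusted p of 0.00216.

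Rps27l, the p53-responsive copy of Rps27, was below its wild types without overlap, at 51.2, 52.0, 54.1 and 47.6 CPM against 78.8, 60.6, 61.2 and 60.2 CPM. That difference of -0.35 ± 0.112 (SE) had an adjusted p of 0.0844 and was not called.

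**Figure D3:**
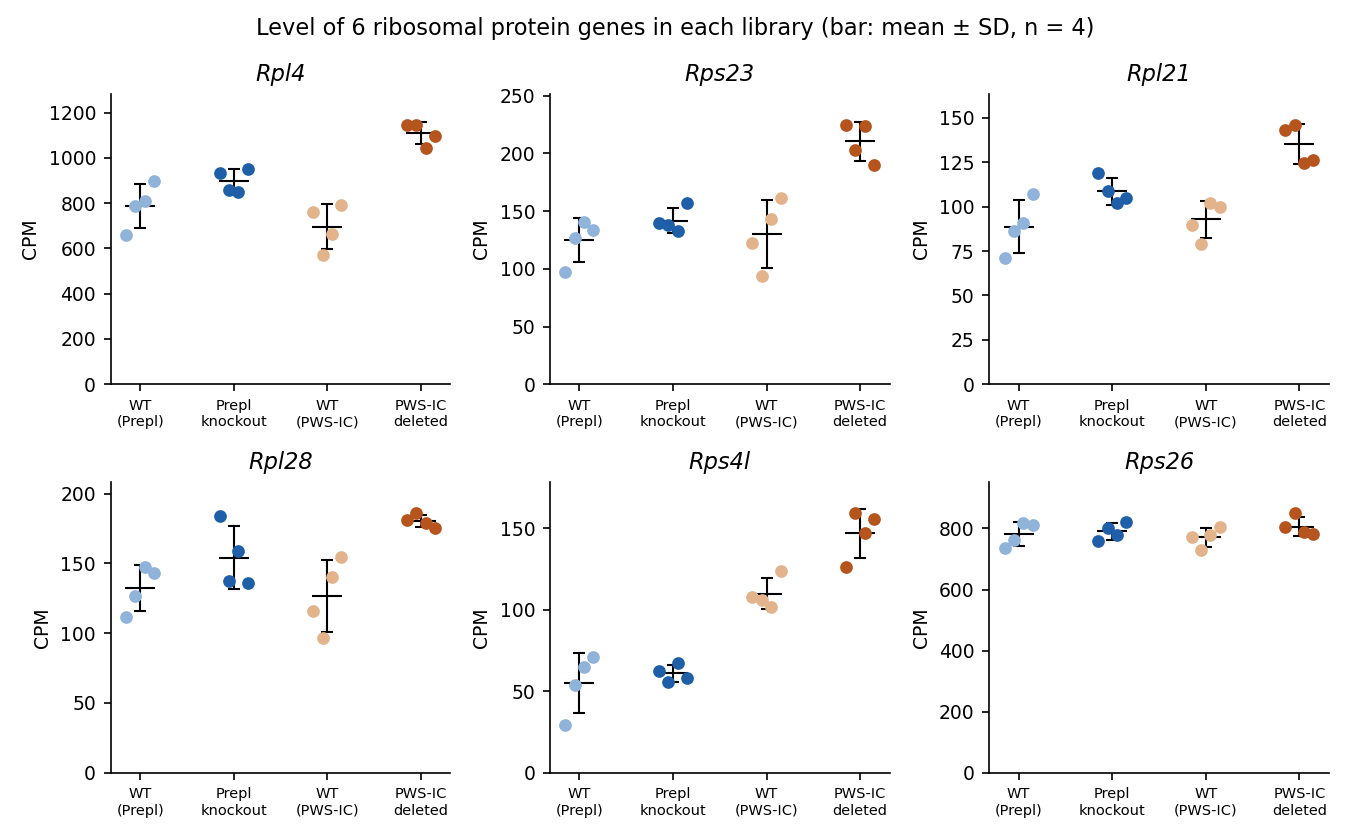
Levels (CPM, linear axes from 0) of 6 ribosomal protein genes in the 16 libraries, with the mean and SD of each group of 4. Rpl4, Rps23, Rpl21 and Rps4l each lie above all their wild types in the 4 PWS-IC deleted libraries, as does Rpl28 at 175 to 186 CPM, while Rps26 lies between 728 and 850 CPM in every library.

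Further members that rose were Rpl28 with a log2 fold change of 0.52 ± 0.109 (SE) and Rps24, mutated in some patients with Diamond-Blackfan anaemia, with 0.45 ± 0.095 (SE). Rpl35, at the tunnel mouth, rose by 0.41 ± 0.104 (SE), Rpl36a by 0.39 ± 0.093 (SE), Rpl14 by 0.39 ± 0.084 (SE) and Rpl13a by 0.39 ± 0.092 (SE). The smallest changes that passed were those of Rps9, Rpl30, Rps4x, Rpl5, Rpl9 and Rpl34, from 0.36 down to 0.30 on the log2 scale. Rps4x, on the X chromosome, was joined by Rps4l on chromosome 6, a transcribed processed pseudogene by annotation. Rps4l was at 108, 106, 102 and 124 CPM in the wild types and at 126, 159, 147 and 156 CPM in the deleted brains. Its lowest deleted library barely cleared its highest wild type, and the log2 fold change was 0.43 ± 0.094 (SE), with an adjusted p of 0.0114.

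Calls were also counted by place in the ribosome. Over all 80 tested members 18 were called higher and 1 lower, and over all genes 2.96% and 1.55%. At an unadjusted p below 0.05, 9.97% of all genes were higher and 8.24% lower. The sets by place hold 2 to 8 members, too few to set one place apart from another. At the peptide exit tunnel and its mouth 2 of 8 members rose, Rpl4 and Rpl35, while Rpl26 at 0.40 ± 0.118 (SE) had an adjusted p of 0.0582 and Rpl39 stood at -0.06 ± 0.096 (SE). Of the 5S particle, the assembly intermediate of Rpl5, Rpl11 and 5S RNA that binds Mdm2 when ribosome assembly fails, Rpl5 rose by 0.35 ± 0.078 (SE). Rpl11 stood at 0.25 ± 0.083 (SE) with an adjusted p of 0.0946, and both were above their wild types in every library. Around the decoding site and the mRNA channel 1 of 6 was called, Rps23, and Rps2, Rps3, Rps15, Rps26 and Rps28 stood between -0.18 and 0.13. The stalk that recruits the elongation factors gave 0 of 4 called in edgeR's quasi-likelihood test and 0 of 4 with an unadjusted p below 0.05, with Rplp0 at 0.02 ± 0.081 (SE), Rplp1 at -0.11 ± 0.094 (SE), Rplp2 at 0.11 ± 0.075 (SE) and its base Rpl12 at 0.02 ± 0.092 (SE). Around the peptidyl transferase centre, where the peptide bond is made, 0 of 3 were called, with Rpl3 at -0.21 ± 0.089 (SE), Rpl10 at -0.18 ± 0.099 (SE) and Rpl8 at 0.18 ± 0.083 (SE); at an unadjusted p below 0.05, Rpl8 was higher and Rpl3 lower. Rps27a, which is made as a fusion with ubiquitin, stood at 0.42 ± 0.129 (SE) with overlapping groups, and Rpsa, also known as a laminin receptor, at -0.05 ± 0.087 (SE).

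**Figure D4:**
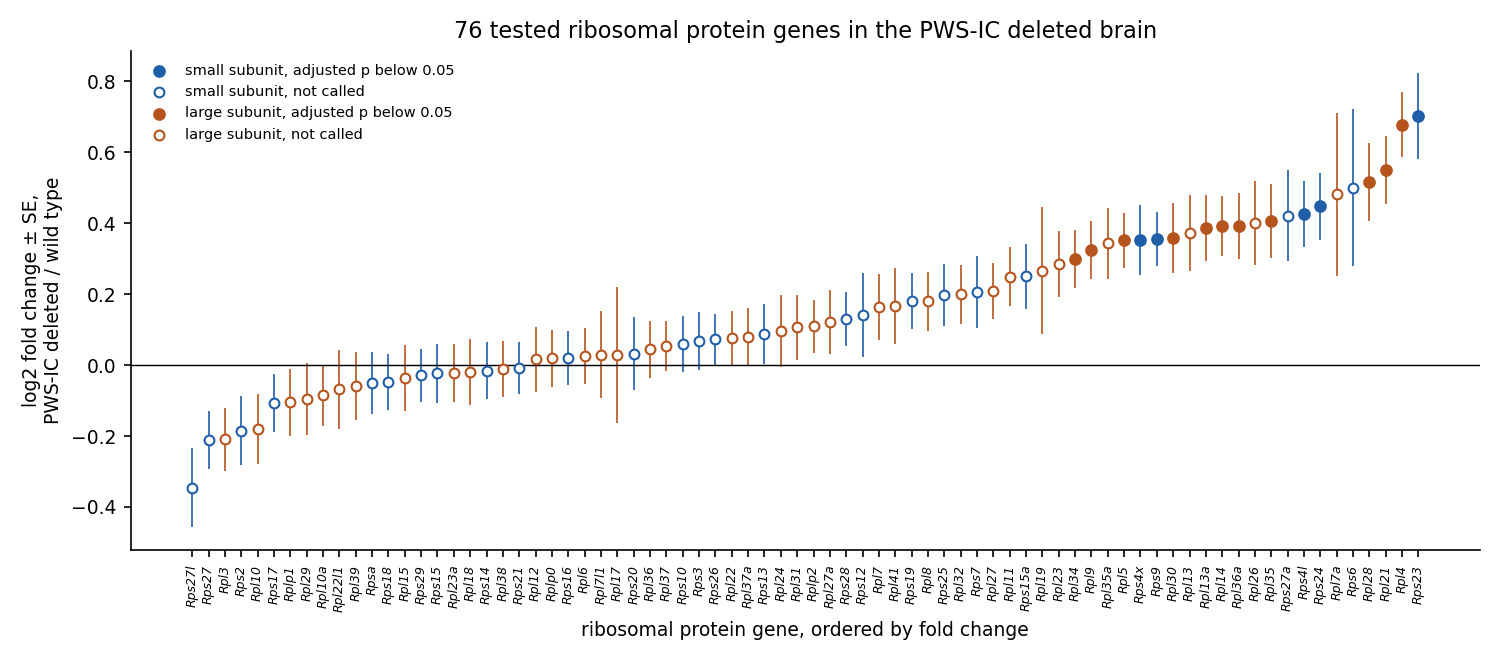
Log2 fold change with its SE (y axis) of 76 of the 80 tested ribosomal protein genes in PWS-IC deleted against wild-type brain, ordered along the x axis; filled symbols have an adjusted p below 0.05. The 16 filled symbols drawn above 0 come from both subunits, and the unfilled ones run from -0.35 to 0.50.

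Without overlap, 22 members were above their wild types, where 6.7% of all genes were, and 3 below, where 5.06% were. Leaving out each of the 8 libraries in turn kept all 19 directions, and 11 members were called in each of those fits, among them Rpl4, Rpl5, Rpl14, Rpl21, Rpl28, Rps9, Rps23 and Rps24. When the share of reads outside genes was made a term of the fit, 0 of 80 were called, and 0.0293% of all genes; Rpl4 then stood at 0.63 and Rps23 at 0.62 on the log2 scale. That share separates the 2 groups completely, so it and the deletion cannot be told apart.

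Markers of other cell types moved in the same comparison, where 1.55% of all genes were called lower and 2.96% higher. At an unadjusted p below 0.05 the shares of all genes were 8.24% and 9.97%. Of 6 blood markers 4 fell, and their summed level was 1798 to 3972 CPM in the wild types and 1205 to 1630.0 CPM in the deleted brains. Of 8 meningeal fibroblast markers 5 fell, from sums of 400.4 to 672 CPM down to 313 to 336 CPM, and 3 of 7 tested choroid plexus markers fell, with sums over 8 listed of 1417 to 2186 CPM against 405 to 1727 CPM. No neuron marker was called, with sums of 3637 to 3928 CPM against 3717 to 4038 CPM, and in edgeR's quasi-likelihood test 1 of 8 was higher at an unadjusted p below 0.05. Each marker of these 4 lists had reads. Of the other lists, 1 of 7 microglia markers (Csf1r, -0.63 ± 0.173 (SE)) and 1 of 5 tested oligodendrocyte markers (Cnp, -0.56 ± 0.142 (SE)) fell, while 0 of 7 astrocyte and 0 of 5 endothelium markers were called, with 2 and 1 lower at an unadjusted p below 0.05. The part of these cells in the members' changes was not tested, and in bulk tissue fewer cells of a type and less RNA per cell cannot be told apart.

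To show the pyrimidine runs near the annotated start beside the changes, the start of 7 members is given from RefSeq promoter windows of the GRCm38.p6 assembly: 35 bases before the annotated start and the first 15 bases from it, 5′ to 3′ on the gene's strand, with the longest pyrimidine run in capitals. The first 5 rose in the PWS-IC deleted brain and carry a run; Rps23 rose most and has no run of 8 there; Rps26 carries a run and was not called. The run of Rpl4 begins 18 bases before the RefSeq start and ends before it, so by RefSeq it is not in the mRNA. The GENCODE start of Rpl4, 64173375, falls inside the run, so the annotations differ on this point. They differ for the other printed members too, whose outermost GENCODE start lies before the printed window. For Rps23 it is 90922958 and for Rps26, on the minus strand, 128626747. The presence or absence of a run is therefore given for the RefSeq start only. None of these runs is shown here to be the first bases of an mRNA.
Rpl4, chr9:64173352-64173401, plus strand: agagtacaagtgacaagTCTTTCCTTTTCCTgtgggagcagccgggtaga
Rpl28, chr7:4792930-4792979, plus strand: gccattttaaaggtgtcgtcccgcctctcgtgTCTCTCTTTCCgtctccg
Rpl14, chr9:120571482-120571531, plus strand: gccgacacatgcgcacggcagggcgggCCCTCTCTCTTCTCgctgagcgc
Rpl35, chr2:39005117-39005166, minus strand: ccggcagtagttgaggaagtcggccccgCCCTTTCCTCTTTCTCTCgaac
Rps9, chr7:3704006-3704055, plus strand: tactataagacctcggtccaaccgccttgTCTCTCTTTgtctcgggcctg
Rps23, chr13:90923087-90923136, plus strand: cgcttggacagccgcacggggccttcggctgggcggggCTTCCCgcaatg
Rps26, chr10:128626492-128626541, minus strand: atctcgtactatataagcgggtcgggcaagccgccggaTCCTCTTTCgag

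A window was found for 62 of the 84 members, 74 windows in all. A run of at least 8 pyrimidines (C or T, on the coding strand) within 30 bases of the start was present in 50% of these windows, against 22.94% of the 32851 windows in the table. The letters CTTTCC, searched on the coding strand in the same stretch and often inside such a run, were in 17.57% against 2.886%. CCGGAAG, letters bound by ETS factors such as Gabpa, was in 35.14% of the windows of 300 bases, on either strand, against 8.858%, and AAGATGGC, bound by Yy1, in 10.81% against 2.749%. Of the tested members with a pyrimidine run 9 of 34 rose in the PWS-IC deleted brain, of those with a window and no run 4 of 25, and of those with no window 5 of 21. The median log2 fold changes of these 3 sets were 0.23, 0.08 and 0.03. Over all 80 tested members 18 rose, and 2.96% of all genes were called higher. The starts printed above do not reflect these proportions. A match is a description of letters only.

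The effects of both mutations were compared directly in a fit of all 16 libraries. For 2 of the 80 members the PWS-IC effect differed from the Prepl effect, where 0.778% of all genes were called, 0.292% towards higher and 0.486% towards lower. At an unadjusted p below 0.05 the difference was positive for 10 members and negative for 6, against 5.96% and 5.7% of all genes. Rpl35a had the largest estimate, 0.83 ± 0.227 (SE), with an adjusted p of 0.0830, and Rpl4 stood at 0.46 ± 0.127 (SE) with 0.0871; without wild type 1 of the Prepl set both were called, at 0.97 and 0.53, and Rpl35a was also called without knockout 4, at 1.03. Rps27l, on the lower side, stood at -0.36 ± 0.153 (SE) with an adjusted p of 0.341. For Rps23 the difference was 0.49 ± 0.162 (SE), with an adjusted p of 0.185. Across the 80 members both effects had a Pearson r of 0.26 and a Spearman rho of 0.39, and over all 13237 genes tested in both 0.13 and 0.15; these are relations across genes, which are not independent replicates.

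Of the 4 comparisons fitted, the one between the 2 sets of wild types called the most members. Of 80 members, 41 were called between the PWS-IC wild types and the Prepl wild types, 39 higher in the PWS-IC set and 2 lower. Over all 13756 tested genes 23.8% were called, 11.8% higher and 12% lower. At an unadjusted p below 0.05, 53 were higher and 3 lower, against 17.8% and 18.1% of all genes. The median log2 fold change was 0.29, against 0.00 for all genes, and 67 of 80 members were above 0, against 49.8% of all genes. Without overlap 31 were higher, where 9.76% of all genes were, and 2 lower, where 14.9% were.

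Rps14 led this difference. It was at 866, 974, 1057 and 1112 CPM in the Prepl wild types and at 1803, 1562, 1709 and 1802 CPM in the PWS-IC wild types. Its log2 fold change was 0.83 ± 0.083 (SE), with an adjusted p of 2.99e-07 in edgeR's quasi-likelihood test. The mutants followed their own wild types, with 1209, 1064, 1030.3 and 1163 CPM in the Prepl knockouts and 1552, 1902, 1739 and 1575 CPM in the PWS-IC deleted brains. Rpl7, at 128 ± 7.49 CPM (SD, n = 4) against 206 ± 24.7 CPM (SD, n = 4), differed by 0.73 ± 0.088 (SE). Rpl37, at 802 ± 104 CPM (SD, n = 4) against 1258 ± 38.6 CPM (SD, n = 4), differed by 0.70 ± 0.086 (SE). Rpl34 had the largest difference, 1.48 ± 0.205 (SE): it was at 86.9, 262, 276 and 282 CPM in the Prepl wild types and at 661, 526, 618 and 640.0 CPM in the PWS-IC wild types. All 4 Prepl knockouts, at 259 to 288 CPM, also lay below the PWS-IC libraries. Rps4l differed by 1.04 ± 0.155 (SE), from 29.6, 53.7, 65.0 and 71.2 CPM to 108, 106, 102 and 124 CPM. For Rpl34 and Rps4l wild type 1 was the lowest of the Prepl set, so the size of both differences rests partly on it. Their fold changes without it are not given here. Both were called in every fit that left out a library.

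Rps12 and Rps6 went the other way. Rps12 was at 47.7, 52.5, 57.2 and 62.1 CPM in the Prepl wild types and at 40.7, 33.1, 40.4 and 39.6 CPM in the PWS-IC wild types, a log2 fold change of -0.47 ± 0.108 (SE) with an adjusted p of 0.00300. Rps6 stood at -0.57 ± 0.190 (SE) with an adjusted p of 0.0326, from 10.6, 15.8, 16.6 and 17.1 CPM to 9.06, 7.57, 12.2 and 10.7 CPM, so that the groups overlapped. It was called in 2 of the 8 fits without a library. Both have named pseudogene copies, 21 for Rps12 and 4 for Rps6. When the reads of all members' named pseudogenes were added to their parent genes, neither was called and 42 members were, all higher in the PWS-IC set. The share of all genes called in that fit is not given here. Rpl13, the next on the lower side, stood at -0.27 ± 0.100 (SE) with an adjusted p of 0.0539. Rps26, among the 5 most abundant members, was at 782 ± 38.8 CPM (SD, n = 4) and 771 ± 31.6 CPM (SD, n = 4), and Rpl4 at 788 ± 97.6 CPM (SD, n = 4) and 696 ± 101 CPM (SD, n = 4); neither was called.

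**Figure D5:**
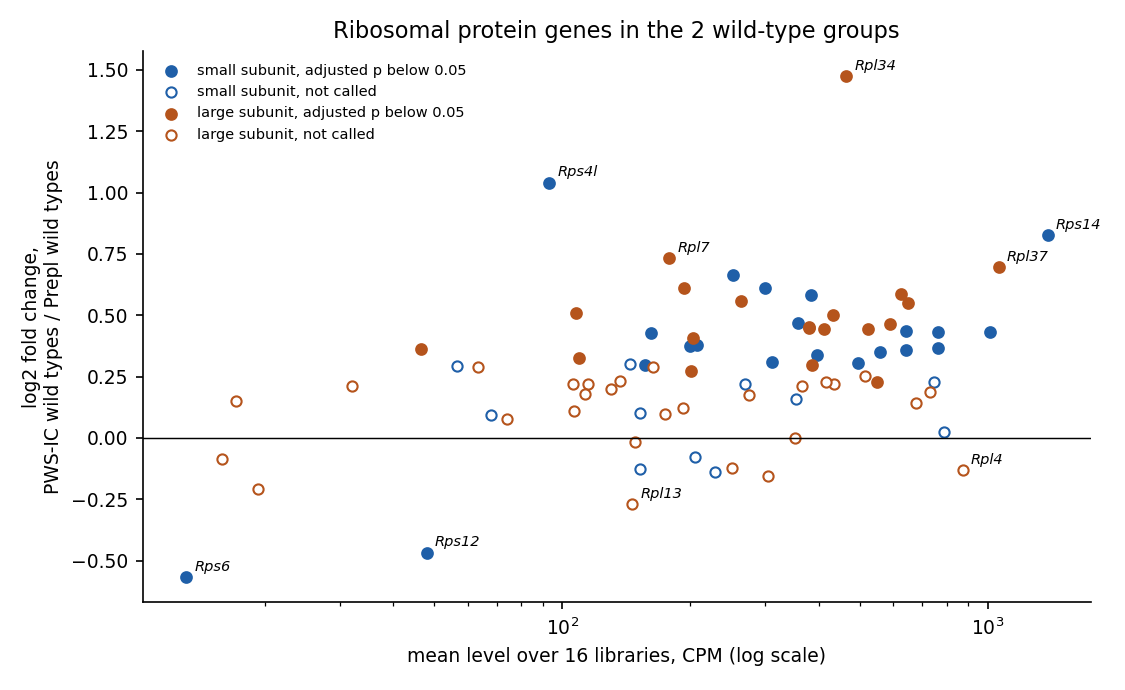
Log2 fold change of the 80 tested ribosomal protein genes between the PWS-IC wild types and the Prepl wild types (y axis) against the mean level over 16 libraries (x axis, CPM, log scale); filled symbols have an adjusted p below 0.05. Of the filled symbols 39 lie above 0, with Rpl34 at 1.48 and Rps4l at 1.04 at the top, and Rps12 and Rps6 lie below.

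Leaving out each library in turn, 32 of the 41 members were called in all 8 fits. Without wild type 1 of the Prepl set 37 were called and the median was 0.19. The shares of all genes called in these fits are not given here. No label gives what else separates the 2 sets, so strain, age or preparation cannot be told apart from the set. By Xist and Y-linked reads the Prepl wild types held 3 females and 1 male, and the PWS-IC wild types 2 and 2. No sex term was fitted in this comparison. Reads outside genes made up 15.98% to 19.6% in the Prepl wild types and 11.4% to 13.7% in the PWS-IC wild types, and reads aligned to several places 25.2% to 28.2% and 30.2% to 30.9%. Neither measure overlapped between the sets, so both also cannot be told apart from it. For the marker lists, 11.8% of all genes were called higher here and 12% lower, with 18.1% lower at an unadjusted p below 0.05. Of 6 blood markers 5 were also higher in the PWS-IC wild types, with sums of 1798 to 3972 CPM against 661 to 1147 CPM, and 4 of 7 tested choroid plexus markers were higher. Of 8 neuron markers 2 were lower, with sums of 3637 to 3928 CPM against 4090 to 4309 CPM, and 2 of 5 tested oligodendrocyte markers were lower, with sums over 7 listed of 95.6 to 105 CPM against 130.0 to 207 CPM and 1 listed marker without reads in the PWS-IC wild types. Astrocyte markers gave 1 higher and 2 lower of 7, endothelium 1 lower of 5, meningeal fibroblast 1 lower of 8 and microglia 0 of 7, with 1 lower at an unadjusted p below 0.05 in edgeR's quasi-likelihood test. Their part in the members' difference was not tested. Rpl4, Rps23 and Rpl21, which rose with the deletion, stood between -0.13 and 0.11 here, while Rpl34 and Rps4l were higher in both comparisons. Both comparisons use the PWS-IC wild types, so the values are set side by side only.

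Other genes of ribosome supply were read from lists. In the Prepl knockout 0 of 45 ribosome assembly factors, 0 of 30 other TOP mRNAs, 0 of 15 RNA polymerase I genes and 0 of 24 regulators were called in edgeR's quasi-likelihood test. Over all genes 0.189% were called higher and 0.0729% lower. At an unadjusted p below 0.05 the lists numbered 2 higher and 1 lower, 2 and 2, 2 and 0, and 0 and 1. Of all genes 4.92% were higher and 4.51% lower at that p. In the PWS-IC deleted brain, where 2.96% of all genes were called higher and 1.55% lower, 4 of 45 assembly factors rose, led by Gnl2, a GTPase of large-subunit assembly, with a log2 fold change of 0.68 ± 0.090 (SE), and Gtpbp4 with 0.44 ± 0.095 (SE). Of 30 other TOP mRNAs 4 rose and 0 fell, among them Eef1b2, an elongation factor subunit, at 0.31 ± 0.087 (SE) and Npm1, a nucleolar chaperone, at 0.32 ± 0.089 (SE). All 4 lay close to the threshold, with adjusted p-values from 0.0448 to 0.04998. RNA polymerase I gave 1 higher, Twistnb at 0.39 ± 0.110 (SE), and 1 lower, Znrd1 at -0.59 ± 0.140 (SE), of 15. Among the 24 regulators Cnbp, a protein that binds TOP mRNAs, rose by 0.52 ± 0.087 (SE), while Mtor at 0.05 ± 0.123 (SE) and Larp1 at 0.34 ± 0.105 (SE), with an adjusted p of 0.0661, were not called. Of 6 ribosomal proteins that the symbol rule misses, Rpl36al rose by 0.66 ± 0.156 (SE), beside its paralogue Rpl36a. The median log2 fold change was 0.15 over the TOP mRNAs, 0.05 over the assembly factors, 0.09 over RNA polymerase I and -0.01 over the regulators and over all genes. With reads outside genes as a covariate only 0.0293% of all genes were called in this comparison, and these lists were not counted in that fit.

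Gene features were counted beside the calls. Small nucleolar RNAs lie inside 29 members, and of these 7 rose and 1 fell in the PWS-IC deleted brain, against 11 and 0 of the 51 others tested, where 2.96% of all genes were called higher and 1.55% lower. In the wild-type comparison 8 of the 29 were higher and 31 of the 51, where 11.8% of all genes were. The percentage of the 3′ end shared with other genes had a Pearson r of 0.07 with the PWS-IC effect and -0.11 with the wild-type difference over 80 members, and the level had -0.06 and 0.40. Several members share exon bases with another gene on the opposite strand in the annotation, among them Rpl28 with Ube2s, Rpl35 with Arpc5l and Rpl5 with Fam69a. Rpl13a shares them with Gm45713 on the same strand. No source used here gives the strand setting of the counting, so reads of such pairs cannot be told apart.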

How the data were processed

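Total RNA of 16 mouse brain samples was sequenced from the 3′ end. The deposited files hold raw read counts per gene symbol, 1 per library. HISAT2, HTSeq and the mm10 genome are named in the submitters' processing notes, without versions or settings. HTSeq's 5 totals name no gene and were left out: 11.4% to 20.1% of reads fell outside genes, 25.2% to 30.9% aligned to several places, 10.9% to 13.8% did not align, 0.390% to 0.479% were ambiguous and 0 had low quality. Reads in genes made up 38.1% to 46.4%.

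Each comparison was fitted over all genes with edgeR 4.0.16 in R 4.3.3 (TMM factors, filterByExpr with a minimum count of 10 and a total of 15, quasi-likelihood F test, Benjamini-Hochberg adjustment, threshold 0.05). Standard errors were obtained from each gene's log2 fold change and its F statistic. Each mutant was compared with its own wild types, the effects in a fit of 16 libraries, and the wild types with each other. Sex was read from Xist and Y-linked genes. Alternatives were DESeq2 1.42.0, voom in limma 3.58.1, other scaling factors, no filter and leaving out each library. A sex term was fitted except between the wild types, and a replicate block for each mutant against its wild types. The share outside genes entered as a term in the PWS-IC comparison. A further alternative, adding the reads of named pseudogenes, was chosen after seeing the data. The scripts were tested on simulated data.

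Members and lists were chosen with earlier results of these data known. Named genes were, for the Prepl comparison, the 6 with the smallest p; for the PWS-IC comparison, called members by size of change, 12 higher and any lower; for the difference and the wild types, the 3 with the smallest p in each direction; and in addition the most and least abundant members, members of set roles, and up to 2 called genes of each other list. All others, such as Rps20, Rpl35a in the Prepl comparison and Rpl34 and Rps4l between the wild types, are named after their values were seen. Results for some members that these rules name are not reported here, but counts include them, and the plot of the PWS-IC comparison and the check for outlying libraries leave them out. Promoter windows and gene models come from RefSeq (GRCm38.p6) and GENCODE M21 (GRCm38).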

Additional observations from a re-analysis of the deposited data

Results flagged for a closer look

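Of 88 groups of 4 libraries checked for a library far from the other 3, 5 held one, where chance gives about 1 in 20. In the PWS-IC wild types Rpl7 was at 169.0 CPM and Rps12 at 33.1 CPM in wild type 2, with the next at 216 and 39.6 CPM, and Rps27l at 78.8 CPM in wild type 1, with the next at 61.2 CPM. In the deleted brains Rpl31 was at 521.8 CPM and Rpl37 at 1376 CPM in library 2, with the next at 456 and 1283 CPM.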

How the results depend on the processing

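The members named by rule for each comparison kept their direction in the alternatives run, but of the Prepl members above 0 (69 of 80) fewer were so with a sex term (41) or without wild type 1 (53). The number of members called moved by more than 1.5 times in few of them. With no filter on low counts it was 5 in the Prepl comparison (Rpl11, Rpl21, Rpl23 and Rpl34 higher, Rpl35a lower) and 5 in the difference between the mutants. With a sex term the difference gave 4. When reads outside genes entered the fit as a covariate, the PWS-IC comparison gave 0. The causes were not tested. Apart from the fit with reads outside genes, the share of all genes called in each alternative is not given here. The counts of members in these fits, and in those that leave out a library, therefore have no background beside them.

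Leaving out each library in turn gave 0 to 1 called in the Prepl comparison, 13 to 19 in the PWS-IC comparison, 1 to 4 in the difference and 36 to 52 between the wild types. The Prepl call came without wild type 1 (Rpl35a) or wild type 4 (Rpl21). The replicate block gave 0 in the Prepl and 25 in the PWS-IC comparison, 23 higher and 2 lower. Numbers were not shown to pair libraries: deviations of equally numbered libraries correlated at 0.006, -0.044, -0.009 and 0.039 in the Prepl set and at -0.029, 0.134, 0.128 and 0.111 in the PWS-IC set, and a library's best partner had its own number in 1 of 4 and 2 of 4.

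Depth limits the lowest members: Rps6 had 1067 reads over 16 libraries and Rpl3l 16.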
